A study of Mus musculus with 2 samples.

Results

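The actin and myosin cytoskeleton of cultured primary microglia was described as 42 genes named for their roles in building, crosslinking, contracting and turning over actin filaments, out of 26607 rows in the expression table. The members were taken by gene symbol, all 42 symbols were found, and each was held by 1 row. They comprised 18 contractile genes (actins, transgelins, tropomyosins, calponins and the chains of myosin II), 11 crosslinking and membrane-linker genes, and 13 genes of actin turnover. The first group was 1 library of primary microglia labelled with a Per2-overexpression vector (Per2 encodes a circadian clock repressor), and the other was 1 library of primary microglia labelled with a control vector. They are called the Per2-labelled and the control-labelled library below. No strain, age, vector dose or time after vector delivery was given in the labels.

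Actin is a globular protein that polymerises into filaments, and myosin II, an assembly of heavy chains, essential light chains and regulatory light chains, pulls on those filaments. Tropomyosins and calponins coat the filaments, crosslinkers bundle them and tie them to adhesions and membranes, and cofilin, profilin, thymosins and the Arp2/3 complex recycle and branch them. In microglia, the macrophages that reside in brain and spinal cord, this machinery drives ramification, migration and phagocytosis.

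Expression was measured as FPKM, which scales fragment counts by transcript length and library total, by sequencing poly(A)-selected RNA. The difference between the libraries is given as a log2 ratio, log2((FPKM in the Per2-labelled library + 1)/(FPKM in the control-labelled library + 1)), over the 12369 genes whose mean reached 1 FPKM. With 1 library per label there is no replicate error, no test between the labels can be run, and p-values are left out. A gene is counted as lower or higher where its log2 ratio reached -1 or 1, that is 2-fold. Sequencing depth is unknown. Per2 itself had 0.927 FPKM in the Per2-labelled library and 6.90 FPKM in the control-labelled library, against the label, so each direction below refers to libraries as labelled. Log2 ratios also fell with transcript length over all genes, and for each of the 42 genes the ratio with that trend removed, called length-adjusted, is given beside the deposited one. Among microglia and macrophage markers, Aif1 (491 and 579 FPKM, Per2-labelled library first), Tyrobp (1364 and 1076 FPKM) and Cd68 (774 and 923 FPKM) were abundant in both libraries. P2ry12 was near 0 (0.0802 and 0.650 FPKM), and both libraries listed Cx3cr1 at 0.

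By the deposited ratios, the median of the 42 cytoskeleton genes and their share below 0 lay close to those of all genes compared, and 5 members were past 2-fold. Of the 42, 4 were at least 2-fold lower in the Per2-labelled library (9.52%), against 5.93% of all genes compared, and 1 was at least 2-fold higher (2.38%), against 2.19% of all genes. The 4 lower genes were Myh9, Epb41l2, Tpm4 and Iqgap1, and the higher gene was Tmsb10. A log2 ratio below 0 was found for 27 members (64.3%) and for 64.1% of all genes. The median log2 ratio was -0.18 for the members and -0.18 for all genes. That match depended on the filter. All 42 members had a mean of at least 5 FPKM. Of the 8079 genes that did, 58.9% lay below 0, 366 were at least 2-fold lower, and the median was -0.12. With the length trend removed, 3 members (7.14%) were at least 2-fold lower, against 2.40% of 10139 genes, and 0 were at least 2-fold higher, where 1.35% were. The members' median was then -0.13, beside -0.0059 for all genes with a length, so the adjusted values of the 42 lay lower than those of all genes. No test of that gap was run. In these bulk libraries, fewer cells of a type and less RNA per cell cannot be told apart.

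Many of these genes, but not all, were among the most abundant of the libraries. At least 100 FPKM was reached in both libraries by 26 of the 42, and at least 1000 FPKM by 6. For scale, Actn4, at 98.5 FPKM in the Per2-labelled library, ranked 1080 by level among the 12369 genes compared. Myh9 and Epb41l2, at 2.29 and 2.32 FPKM in that library, ranked 9823 and 9782. Their FPKM summed to 36822 in the Per2-labelled library and to 33216 in the control-labelled library, which was 4.84% and 5.04% of all FPKM. Tmsb4x, the actin-monomer-sequestering thymosin beta 4, held 48.2% of the members' sum in the Per2-labelled library and 42.2% in the control-labelled library. It ranked 4 by level among all genes compared in each library.

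**Figure D1:**
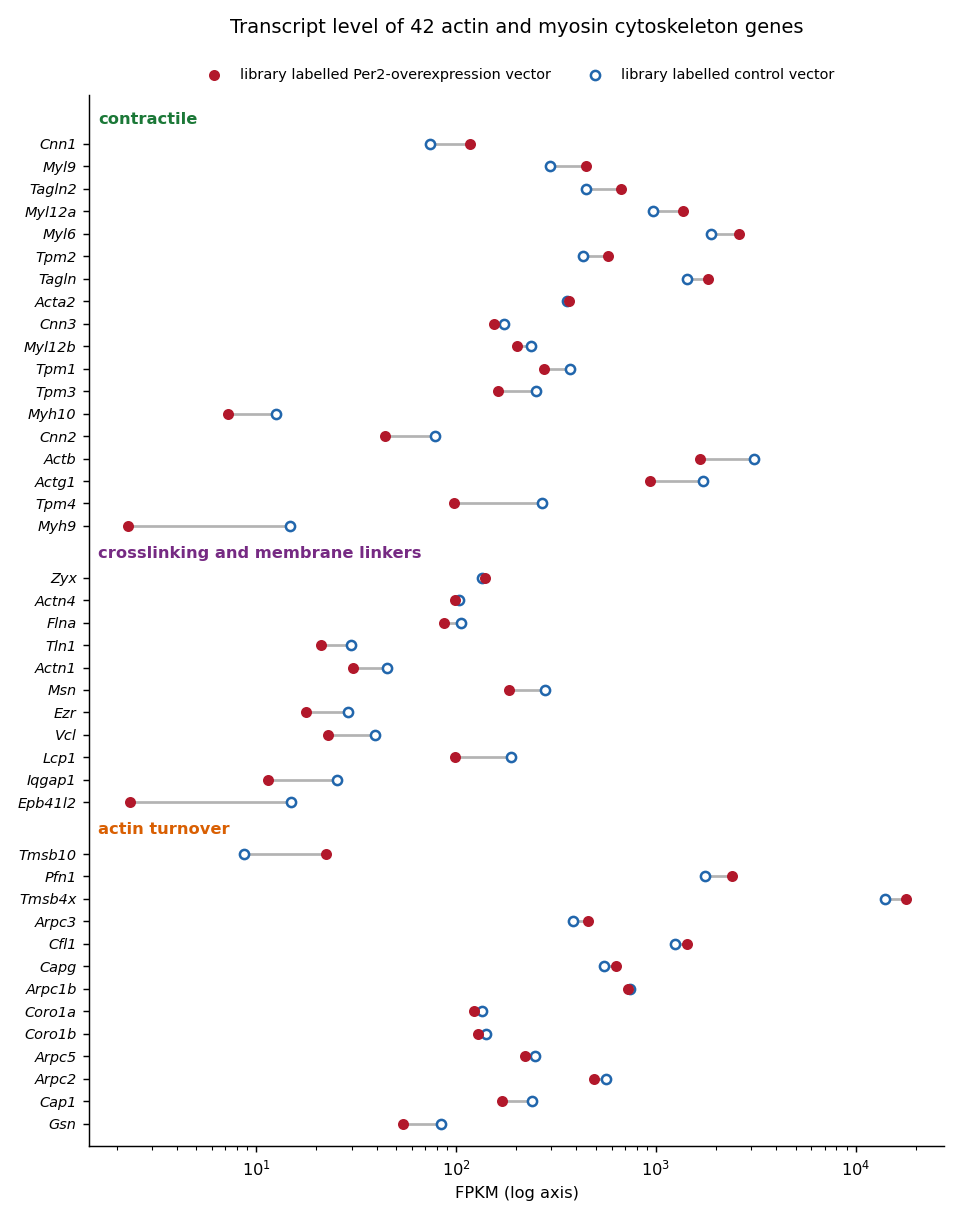
FPKM (log axis) of the 42 genes in the library labelled Per2-overexpression vector (filled) and the library labelled control vector (open), 1 library each, grouped by role and ordered by log2 ratio. Levels run from 2.29 FPKM for Myh9 in the Per2-labelled library to 17754 FPKM for Tmsb4x in the same library, and most pairs of points lie close together.

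Myosin II heavy chains were lower in the Per2-labelled library, while most light chains were higher. Myh9 (ENSRNOG00000004860), the heavy chain of non-muscle myosin IIA, had 2.29 FPKM in the Per2-labelled library and 14.8 FPKM in the control-labelled library, a log2 ratio of -2.27. Only 24 of the 12369 genes had a lower ratio, and with the length trend removed Myh9 stood at -1.81. Myh10, the heavy chain of non-muscle myosin IIB, had 7.26 FPKM in the Per2-labelled library and 12.6 FPKM in the control-labelled library (log2 ratio -0.72), which was -0.26 with the length trend removed. The order of these heavy chains thus differed between the libraries. Myh9 made up 23.9% of their summed FPKM in the Per2-labelled library and 54.1% in the control-labelled library.

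Of the light chains, Myl6, the essential light chain of non-muscle and smooth muscle myosin, had 2608 FPKM in the Per2-labelled library and 1895 FPKM in the control-labelled library (log2 ratio 0.46). The regulatory light chains are the subunits whose phosphorylation switches myosin II on. Among them Myl9 had 447 FPKM in the Per2-labelled library and 296 FPKM in the control-labelled library (log2 ratio 0.60), and Myl12a had 1361 and 966 FPKM in the same order (0.49). Myl12b, a near-identical paralog of Myl12a with which it can share reads, went the other way, with 201 and 238 FPKM (log2 ratio -0.24). None of the 4 light chains reached 2-fold. The 3 regulatory light chains together had 210 times the FPKM of the 2 heavy chains in the Per2-labelled library and 54.8 times in the control-labelled library, a 3.84-fold difference that does not depend on how the libraries are scaled. Heavy-chain transcripts are long and light-chain transcripts short. With the length trend removed, the light chains stood at 0.29 (Myl9), 0.54 (Myl12a), -0.14 (Myl12b) and 0.41 (Myl6).

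Cytoplasmic actins were lower in the Per2-labelled library and smooth muscle alpha-actin was not. Actb, beta-actin, had 1659 FPKM in the Per2-labelled library and 3081 FPKM in the control-labelled library, a log2 ratio of -0.89. Actg1, gamma-actin, had 930 and 1729 FPKM in the same order, also -0.89. Both lay under 2-fold, and with the length trend removed they stayed near these values, at -0.85 each. The ratio of Actb to Actg1 was 1.78 in both libraries. These genes encode nearly the same protein and have processed copies in rodent genomes, so reads could be split between them or lost to copies. Acta2, smooth muscle alpha-actin, had 367 FPKM in the Per2-labelled library and 359 FPKM in the control-labelled library (log2 ratio 0.03, length-adjusted 0.10), and its direction turned to lower after rescaling to TPM. Relative to the cytoplasmic actins, Acta2 was 1.90-fold higher in the Per2-labelled library, at 0.142 against 0.0747. Actg2, enteric smooth muscle gamma-actin and no member, was named after its values were seen. It had 56.0 FPKM in the Per2-labelled library and 41.9 FPKM in the control-labelled library.

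Tropomyosins, the coiled coils that lie along the actin filament, split by gene. Tpm4 (ENSRNOG00000015496) was at least 2-fold lower, with 97.5 FPKM in the Per2-labelled library and 268 FPKM in the control-labelled library, a log2 ratio of -1.45. Its ratio was -1.35 with the length trend removed, and 204 of all genes compared had a lower deposited ratio. Tpm3 had 162 FPKM in the Per2-labelled library and 252 FPKM in the control-labelled library (-0.64, length-adjusted -0.52), and Tpm1 had 276 and 372 FPKM (-0.43, length-adjusted -0.21). Tpm2, the beta-tropomyosin of muscle, was the member of the family with a ratio above 0, at 575 FPKM in the Per2-labelled library and 431 FPKM in the control-labelled library (0.42, length-adjusted 0.52). Tpm2 held 51.8% of the tropomyosin FPKM in the Per2-labelled library and 32.5% in the control-labelled library. The share of Tpm4 was 8.78% in the Per2-labelled library and 20.3% in the control-labelled library.

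Among calponins and transgelins, related actin-binding proteins, the calponins differed in sign and both transgelins lay above 0. Cnn1, the basic calponin of smooth muscle, had 118 FPKM in the Per2-labelled library and 73.8 FPKM in the control-labelled library, a log2 ratio of 0.67, or 0.82 with the length trend removed. That was the highest length-adjusted ratio of the 42. Cnn2, a calponin of non-muscle cells that macrophages express, had 44.3 FPKM in the Per2-labelled library and 78.7 FPKM in the control-labelled library (-0.82, length-adjusted -0.65). Cnn3, the acidic calponin, differed little, at 154 and 173 FPKM (-0.16, length-adjusted -0.08). Cnn1 stood at 2.66 times the FPKM of Cnn2 in the Per2-labelled library and at 0.937 times in the control-labelled library. Tagln, the transgelin of smooth muscle, had 1817 FPKM in the Per2-labelled library and 1425 FPKM in the control-labelled library (0.35, length-adjusted 0.27). Tagln2, its non-muscle relative, had 667 and 447 FPKM (0.58, length-adjusted 0.50). No calponin or transgelin reached 2-fold.

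**Figure D2:**
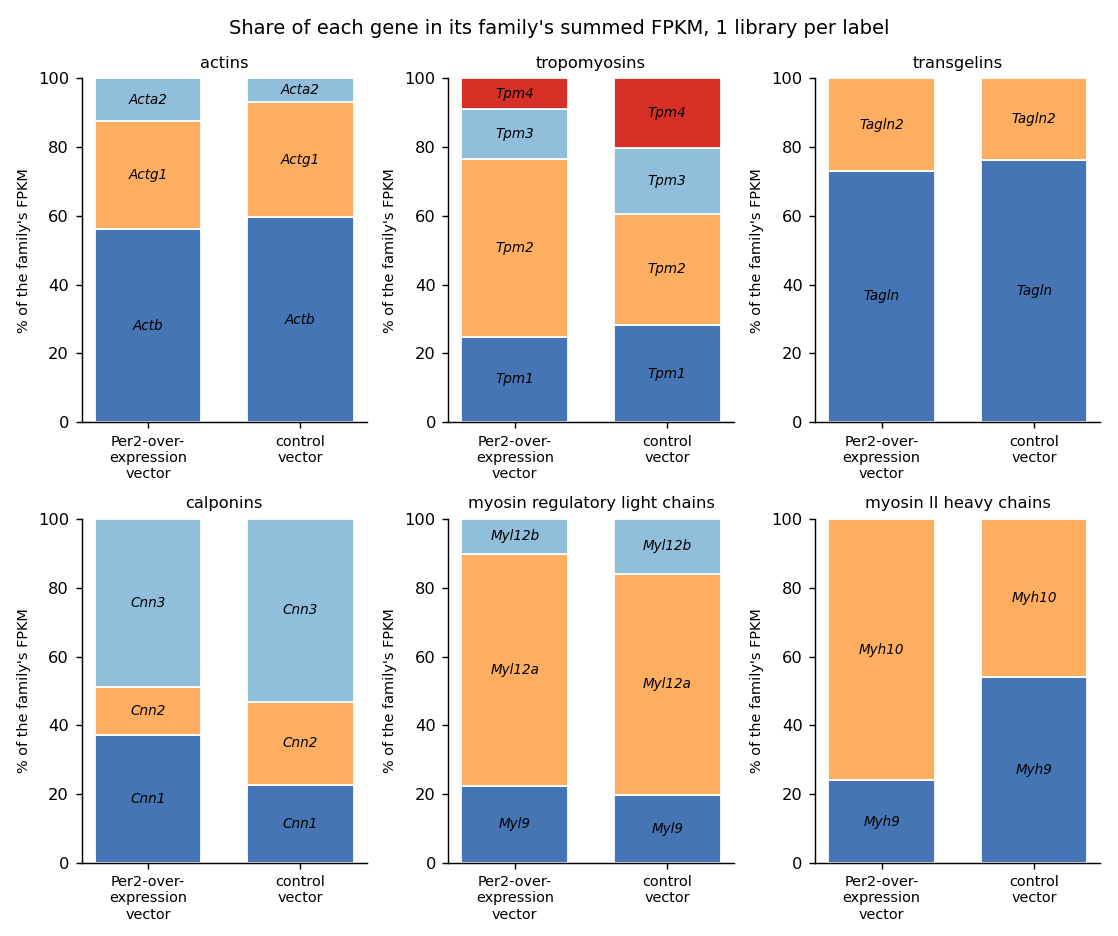
Share (%) of each gene in the summed FPKM of its family, with the Per2-overexpression vector library on the left of each panel and the control vector library on the right, 1 library each. Tpm4 (8.78% against 20.3%) and Myh9 (23.9% against 54.1%) took smaller shares in the Per2-labelled library, and Tpm2 (51.8% against 32.5%) and Cnn1 (37.2% against 22.7%) larger ones.

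Markers of smooth muscle cells and pericytes were low in both libraries. Of 10 such markers outside the 42 genes, 5 had a mean of at least 1 FPKM, and their FPKM summed over all 10 to 41.3 in the Per2-labelled library and 38.2 in the control-labelled library. Most of that was Smtn, smoothelin (18.2 and 14.01 FPKM), and Pdgfrb (14.03 and 13.4 FPKM). Myh11, the smooth muscle myosin heavy chain, had 1.47 FPKM in the Per2-labelled library and 2.12 FPKM in the control-labelled library, and Rgs5 was listed at 0 and 0.0518 FPKM. Lmod1, leiomodin 1 of smooth muscle filaments, had 3.20 FPKM in the Per2-labelled library and 4.99 FPKM in the control-labelled library (log2 ratio -0.51, length-adjusted -0.17). That was the lowest log2 ratio of the 5 past the filter, of which 2 lay below 0 and 3 above. Their median was 0.06, beside -0.18 for all genes. With the length trend removed, the median of these markers was 0.48, beside -0.0059 for all genes. Fibroblast and meningeal markers were more abundant: 9 of 9 passed the filter and summed to 1286 FPKM in the Per2-labelled library and 1632 FPKM in the control-labelled library. Igfbp2 (448 and 579 FPKM in the same order) and Fn1 (408 and 458 FPKM) held most of that. The median log2 ratio of the 9 was -0.23, or 0.014 with the length trend removed. The part of other cell types in these ratios was not tested.

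Over all 18 contractile genes, 2 were at least 2-fold lower (Myh9 and Tpm4), where 5.93% of all genes were. At least 2-fold higher were 0, where 2.19% of all genes were, and 16 lay between. The median was -0.20, beside -0.18 for all genes. Removing the length trend gave a median of -0.11, beside -0.0059 for all genes. The counts past 2-fold were the same, where 2.40% of all genes were then lower and 1.35% higher. By both measures 10 genes lay below 0 and 8 above. Of all genes, 64.1% lay below 0, or 50.7% with the length trend removed.

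Of 11 crosslinking and membrane-linker genes, 10 had a log2 ratio below 0, where 64.1% of all genes did. At least 2-fold lower were 2, where 5.93% of all genes were, while 0 were 2-fold higher or more, and the median was -0.59. Most encode large proteins with long transcripts (median 3877 nt, against 2089 nt for contractile genes), and with the length trend removed the median was -0.25. Then 8 of the 11 lay below 0, where 50.7% of all genes did, and 1 was at least 2-fold lower, where 2.40% were. Epb41l2 (ENSRNOG00000012346), a relative of the erythrocyte skeleton protein Epb41 that links spectrin and actin to the membrane, had 2.32 FPKM in the Per2-labelled library and 14.9 FPKM in the control-labelled library. Its log2 ratio of -2.25 was undercut by 26 of all genes compared and was -1.88 with the length trend removed, the lowest length-adjusted value of the 42. Iqgap1, a scaffold that ties actin to Cdc42 and Rac1, had 11.4 FPKM in the Per2-labelled library and 25.4 FPKM in the control-labelled library (-1.09). It was at -0.63 with the length trend removed and so no longer past 2-fold.

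Lcp1, the L-plastin that bundles actin in leukocytes, had 99.2 FPKM in the Per2-labelled library and 189 FPKM in the control-labelled library (log2 ratio -0.92, or -0.59 with the length trend removed). The 11 microglia and macrophage markers summed to 3714 FPKM in the Per2-labelled library and 3953 FPKM in the control-labelled library. Their log2 ratios ran from -1.83 (C1qa) to 0.34 (Tyrobp), with a median of -0.30, beside -0.18 for all genes. Below 0 were 9, where 64.1% of all genes were. With the length trend removed, their median was -0.38, beside -0.0059 for all genes, and Tyrobp stood at -0.32. The part of leukocyte content in the Lcp1 value was not tested. The ERM proteins link actin to membrane proteins. Msn, moesin, had 185 FPKM in the Per2-labelled library and 279 FPKM in the control-labelled library (-0.59, length-adjusted -0.25), and Ezr, ezrin, had 17.8 and 28.6 FPKM (-0.66, length-adjusted -0.40).

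At focal adhesions, where integrins meet actin, vinculin and talin had deposited ratios below 0 and zyxin one near 0. Vcl, vinculin, had 23.0 FPKM in the Per2-labelled library and 39.4 FPKM in the control-labelled library (log2 ratio -0.75, length-adjusted -0.33). Tln1, talin 1, had 21.04 and 29.9 FPKM (-0.49), but stood at -0.02 with the length trend removed. Zyx, zyxin, had 139 FPKM in the Per2-labelled library and 136 FPKM in the control-labelled library (0.03, length-adjusted 0.29), and its direction turned to lower after rescaling to TPM. Of the alpha-actinins, which crosslink actin into bundles, Actn1 had 30.6 and 45.1 FPKM (-0.54, length-adjusted -0.22) and Actn4 had 98.5 and 103 FPKM (-0.06). Flna, filamin A, which joins filaments into networks, had 86.9 FPKM in the Per2-labelled library and 106 FPKM in the control-labelled library (-0.28). The directions of Actn4 and Flna turned to higher with the length trend removed (0.28 and 0.18).

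**Figure D3:**
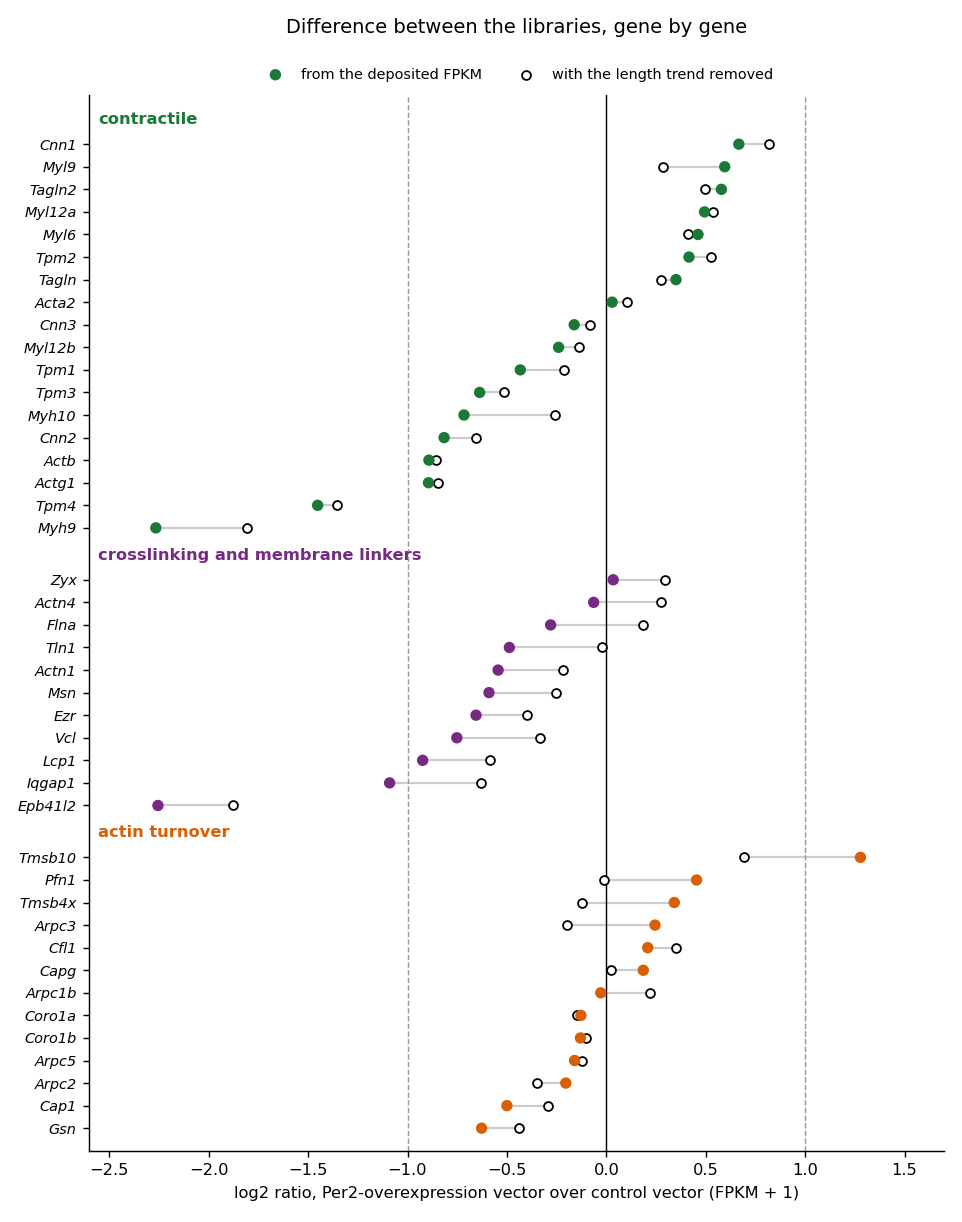
Log2 ratio of the 42 genes, Per2-overexpression vector over control vector, from the deposited FPKM (filled, coloured by role) and with the length trend removed (open), with dashed lines at 2-fold. Myh9, Epb41l2 and Tpm4 lie left of the lower line by both measures, while Iqgap1 and Tmsb10 pass a line by the deposited values alone.

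Genes of actin turnover went both ways, from -0.63 for Gsn to 1.28 for Tmsb10. Of 13, 7 lay below 0 on the log2 scale and 6 lay above, where 64.1% of all genes lay below. None was at least 2-fold lower, where 5.93% of all genes were, and 1 was at least 2-fold higher, where 2.19% were. The median was -0.03, beside -0.18 for all genes. The median had the opposite sign after median-of-ratios centring (0.06). Their transcripts were short (median 1747 nt), and with the length trend removed the median was -0.12, beside -0.0059 for all genes. None of the 13 then reached 2-fold, where 2.40% of all genes were lower and 1.35% higher by as much. By that measure 9 lay below 0 and 4 above, where 50.7% of all genes lay below. Tmsb10 (ENSRNOG00000036921), thymosin beta 10, which binds actin monomers, was the higher gene. It had 22.4 FPKM in the Per2-labelled library and 8.66 FPKM in the control-labelled library, a log2 ratio of 1.28, or 0.69 with the length trend removed. Thymosin genes are short and have near-identical copies, so these values are uncertain. Tmsb4x had 17754 FPKM in the Per2-labelled library and 14011 FPKM in the control-labelled library (0.34), but -0.12 with the length trend removed.

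Pfn1, profilin 1, which feeds monomers to growing filaments, had 2405 FPKM in the Per2-labelled library and 1756 FPKM in the control-labelled library (log2 ratio 0.45, or -0.01 with the length trend removed). Cfl1, cofilin 1, which severs old filaments, had 1436 and 1244 FPKM in the same order (0.21, or 0.35 with the length trend removed). Their summed FPKM was 1.48 times that of Actb and Actg1 in the Per2-labelled library and 0.624 times in the control-labelled library. The ratio thus differed 2.38-fold between the libraries. Cap1, which recycles monomers with cofilin, had 169 FPKM in the Per2-labelled library and 240 FPKM in the control-labelled library (-0.50, length-adjusted -0.30). Gsn, gelsolin, a calcium-dependent severing protein, had 54.3 and 84.4 FPKM (-0.63, length-adjusted -0.44), the lowest ratio of the 13. Capg, a gelsolin relative that caps filaments in macrophages, had 629 FPKM in the Per2-labelled library and 553 FPKM in the control-labelled library (0.19, length-adjusted 0.02), and this turned to lower after rescaling to TPM.

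The 4 members of the Arp2/3 complex, which starts branches on existing filaments, had ratios between -0.20 and 0.24. Arpc1b had 728 FPKM in the Per2-labelled library and 742 FPKM in the control-labelled library (log2 ratio -0.03, length-adjusted 0.22), and Arpc2 had 489 and 563 FPKM (-0.20, length-adjusted -0.35). Arpc3 had 456 and 385 FPKM in the same order (0.24, length-adjusted -0.20), and Arpc5 had 221 and 247 FPKM (-0.16, length-adjusted -0.12). The signs for Arpc1b and Arpc3 turned with the length trend removed. Subunits outside the 42 genes also went both ways. Of the actin-related core subunits, Actr3 had 182 FPKM in the Per2-labelled library and 257 FPKM in the control-labelled library (-0.49, length-adjusted -0.31), and Actr2 had 85.1 and 104 FPKM (-0.29, length-adjusted 0.03). Arpc1a (0.17), Arpc4 (0.15) and Arpc5l (0.31) had log2 ratios above 0, and their length-adjusted ratios were 0.10, 0.27 and 0.12. The coronins among the 42 genes, which debranch Arp2/3 networks, had ratios near 0. Coro1a, the leukocyte coronin, had 123 FPKM in the Per2-labelled library and 134 FPKM in the control-labelled library (-0.13, length-adjusted -0.15), and Coro1b had 128 and 140 FPKM (-0.13, length-adjusted -0.10).

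Transcript length moved with these ratios. Across the 42 genes, which share their libraries, Spearman's rank correlation between log2 ratio and length was -0.63, and it was -0.50 across 10139 genes. With the trend removed, the correlation across the 42 was -0.34. Over all genes, the median was 0.43 in the shortest 10% and -0.47 in the longest 10%. Members below the usual range for their length were not all long: Actb, Actg1 and Tpm4 have transcripts of 1920, 1952 and 2128 nt, and Cnn1, on the other side, has 2381 nt. Lengths are those of the longest coding transcript of the mouse gene of that symbol. A gene expressed mainly as a shorter transcript would get too high a length-adjusted ratio this way. Which transcripts were expressed was not examined.

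**Figure D4:**
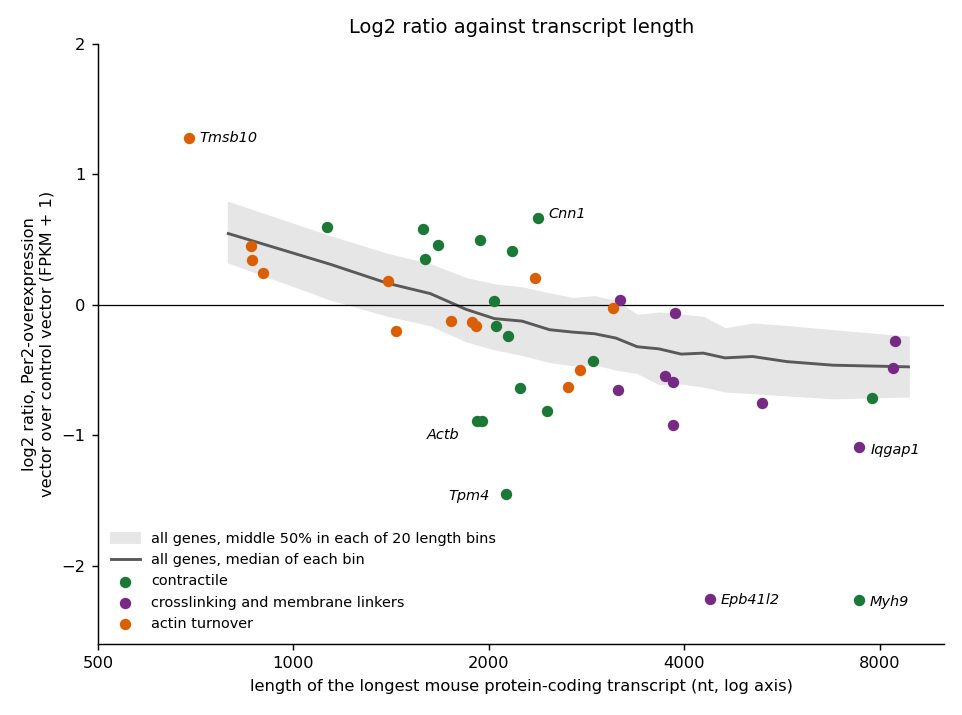
Log2 ratio, Per2-overexpression vector over control vector, against transcript length (nt, log axis) for the 42 genes coloured by role, over the median and the middle 50% of all genes in 20 length bins. Myh9, Epb41l2 and Tpm4 lie far below the band, Cnn1 lies above it, and Actb and Actg1 overlap at -0.89.

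Promoter sequence was examined because serum response factor, which reports the state of the actin pool through its MRTF cofactors, binds the CArG box of many of these genes, and because CLOCK-BMAL1, the target of PER2 repression, binds the E-box CACGTG. Windows of 250 bases before to 50 after the transcription start came from RefSeq for the mouse build GRCm38.p6. These are mouse sequences, whereas the expression values carry rat identifiers. A window was matched by symbol for 39 of the 42 genes (47 windows), and both strands were searched. The CArG box was searched as CCWWWWWWGG, where W is A or T, with no mismatch allowed. By that pattern it was present in 5 of the 47 windows (10.6%), against 1.63% of all 32851 windows. CACGTG was present in 4 (8.51%), against 7.15% of all windows. CATTCC, the element bound by TEAD factors, was present in 11 (23.4%), against 14.7%. The 5 windows with a CArG box, written 5′ to 3′ on the gene's strand with the CArG box in capitals, are shown because their genes fell on both sides of 0. In Actg1 a CACGTG is in capitals too.

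Actg1 (chr11:120348446-120348745, minus strand): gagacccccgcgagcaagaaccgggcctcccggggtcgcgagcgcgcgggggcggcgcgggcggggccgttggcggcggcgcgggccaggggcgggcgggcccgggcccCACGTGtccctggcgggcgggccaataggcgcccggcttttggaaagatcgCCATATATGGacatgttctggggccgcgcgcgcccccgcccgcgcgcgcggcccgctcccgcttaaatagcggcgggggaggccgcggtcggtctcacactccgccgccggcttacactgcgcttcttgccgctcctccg
Vcl (chr14:20929148-20929447, plus strand): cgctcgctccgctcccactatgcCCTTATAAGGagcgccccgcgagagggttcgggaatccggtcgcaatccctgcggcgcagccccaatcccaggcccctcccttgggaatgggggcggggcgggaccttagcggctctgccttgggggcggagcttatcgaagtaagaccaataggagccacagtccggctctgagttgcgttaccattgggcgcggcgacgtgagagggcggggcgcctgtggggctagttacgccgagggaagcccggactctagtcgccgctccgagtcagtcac
Cnn2 (chr10:79988350-79988649, plus strand): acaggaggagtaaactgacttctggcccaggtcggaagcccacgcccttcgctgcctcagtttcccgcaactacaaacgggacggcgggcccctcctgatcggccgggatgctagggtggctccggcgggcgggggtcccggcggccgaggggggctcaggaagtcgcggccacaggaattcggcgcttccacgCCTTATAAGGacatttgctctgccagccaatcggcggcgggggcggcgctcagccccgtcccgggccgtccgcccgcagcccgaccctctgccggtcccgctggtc
Myl9 (chr2:156775214-156775513, plus strand): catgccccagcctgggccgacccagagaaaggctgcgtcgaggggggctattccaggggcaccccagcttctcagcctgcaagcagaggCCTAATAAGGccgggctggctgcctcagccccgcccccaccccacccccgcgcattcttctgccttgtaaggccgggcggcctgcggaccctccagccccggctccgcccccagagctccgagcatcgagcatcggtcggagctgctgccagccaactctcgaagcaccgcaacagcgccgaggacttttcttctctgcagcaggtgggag
Myl6 (chr10:128492960-128493259, minus strand): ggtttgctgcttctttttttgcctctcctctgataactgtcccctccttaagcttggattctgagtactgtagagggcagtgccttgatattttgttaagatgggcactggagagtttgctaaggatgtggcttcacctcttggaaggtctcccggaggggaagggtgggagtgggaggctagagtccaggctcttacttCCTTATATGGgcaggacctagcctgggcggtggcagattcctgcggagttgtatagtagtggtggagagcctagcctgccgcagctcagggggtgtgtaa

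Counted from the start, the first base of the CArG box lay at -90 in Actg1, -227 in Vcl, -56 in Cnn2, -161 in Myl9 and -50 in Myl6, in the second of its 2 windows. Log2 ratios of these 5 genes were -0.89 for Actg1, -0.75 for Vcl, -0.82 for Cnn2, 0.60 for Myl9 and 0.46 for Myl6. These 5 genes thus did not share a direction. Srf itself had 16.6 FPKM in the Per2-labelled library and 16.4 FPKM in the control-labelled library. Its cofactor gene Mrtfa had 2.59 and 6.11 FPKM in the same order (-0.99, length-adjusted -0.61). The part of these factors in the 5 ratios was not tested.

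The other 3 windows with CACGTG, in capitals, are printed with 30 bases on either side for comparison with Actg1.

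Arpc5 (chr1:152766328-152766393, plus strand): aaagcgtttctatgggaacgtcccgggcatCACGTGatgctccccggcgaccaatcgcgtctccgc
Msn (chrX:96095876-96095941, plus strand): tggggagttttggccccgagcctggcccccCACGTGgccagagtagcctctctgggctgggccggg
Myl12a (chr17:71002548-71002613, minus strand): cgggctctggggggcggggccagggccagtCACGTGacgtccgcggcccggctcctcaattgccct

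Their log2 ratios were -0.16 for Arpc5, -0.59 for Msn and 0.49 for Myl12a. The windows of Myh9 and Tpm4, the contractile genes past 2-fold, held none of the 3 motifs. They are shown because these genes had the largest differences of the contractile group.

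Myh9 (chr15:77842126-77842425, minus strand): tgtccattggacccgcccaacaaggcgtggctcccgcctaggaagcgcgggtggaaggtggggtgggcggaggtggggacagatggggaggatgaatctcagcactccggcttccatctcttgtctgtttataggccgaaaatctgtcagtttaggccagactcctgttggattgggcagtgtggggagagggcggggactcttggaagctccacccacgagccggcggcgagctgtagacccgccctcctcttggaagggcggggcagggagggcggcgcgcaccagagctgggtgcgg
Tpm4 (chr8:72135038-72135337, plus strand): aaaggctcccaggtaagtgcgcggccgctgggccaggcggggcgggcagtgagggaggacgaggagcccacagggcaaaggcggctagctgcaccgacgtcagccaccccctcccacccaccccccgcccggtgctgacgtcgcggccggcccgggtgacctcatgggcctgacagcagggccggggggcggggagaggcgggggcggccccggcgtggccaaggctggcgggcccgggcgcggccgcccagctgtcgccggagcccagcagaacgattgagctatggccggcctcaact

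A match describes these letters and is no evidence of binding. A window without a match says nothing of sites elsewhere, or of sites within it that differ from the pattern.

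Other genes of the pathway were grouped by role, and their counts stand beside 64.1% of all genes below 0 and 5.93% at least 2-fold lower, or 50.7% and 2.40% with the length trend removed. Among 14 measured myosins outside the 42 genes, 13 had a log2 ratio below 0, 5 were at least 2-fold lower while 0 were 2-fold higher or more, and their median was -0.65, or -0.23 after removing the length trend. The count at least 2-fold lower was then 1. Myo1e, a membrane-linked class I myosin, had 2.55 FPKM in the Per2-labelled library and 11.95 FPKM in the control-labelled library (log2 ratio -1.87) and was past 2-fold by both measures (-1.48). Myo5a, a vesicle motor, had 5.58 and 16.8 FPKM (-1.44), and Myo10, the filopodial myosin, had 0.848 and 3.43 FPKM (-1.26). With the length trend removed, these stood at -0.95 and -0.80, under 2-fold.

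A list of ERM, Epb41-family and spectrin skeleton genes outside the 42 also held other genes, such as Marcks and Dbnl. All 14 measured had a deposited log2 ratio below 0 (median -0.48, or -0.23 with the length trend removed). Nf2 (0.14) and Ank3 (0.09) lay above 0 with the length trend removed. In this list 2 genes were at least 2-fold lower by both measures. They were Sptbn1, a beta-spectrin (2.23 FPKM in the Per2-labelled library and 8.96 FPKM in the control-labelled library, log2 ratio -1.62), and Rdx, radixin (1.72 and 6.52 FPKM, -1.47). Epb41, the founder of its family, had 0.631 and 2.05 FPKM (-0.90).

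Of 23 further Arp2/3 subunits, nucleators and activators, 3 were at least 2-fold lower while 0 were 2-fold higher or more (median -0.53, or -0.20 with the length trend removed). The 3 were Fmnl3, a formin (1.89 FPKM in the Per2-labelled library and 6.98 FPKM in the control-labelled library, log2 ratio -1.46), Diaph3, another formin (0.766 and 2.74 FPKM, -1.08), and Nckap1, a subunit of the WAVE complex (19.4 and 41.7 FPKM, -1.07). With the length trend removed, Fmnl3 alone of these was past 2-fold (-1.08).

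Among 19 other severing, capping and monomer-binding genes, 16 had a log2 ratio below 0, and the median was -0.43, or -0.21 with the length trend removed. Coro7, a coronin of the Golgi, was the 1 gene at least 2-fold lower, while 0 were 2-fold higher or more. It had 6.98 FPKM in the Per2-labelled library and 25.3 FPKM in the control-labelled library (log2 ratio -1.72, or -1.35 with the length trend removed). Svil, supervillin, had 2.24 and 5.40 FPKM (-0.98), and Tmod3, a capper of pointed ends, had 37.9 and 59.95 FPKM (-0.65). Of 25 other focal adhesion and crosslinking genes, 2 were at least 2-fold lower while 0 were 2-fold higher or more, and the median of -0.23 was near that of all genes. They were Ptk2, the focal adhesion kinase (6.37 FPKM in the Per2-labelled library and 16.04 FPKM in the control-labelled library, -1.21), and Fscn1, fascin, the bundler of filopodia (33.4 and 78.2 FPKM, -1.20). Pdlim5 had 7.88 and 15.8 FPKM (-0.92). Only Fscn1 of these 3 was past 2-fold with the length trend removed (-1.01).

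Of 15 measured factors and textbook targets of SRF, MRTF and YAP, 2 were at least 2-fold lower while 0 were 2-fold higher or more, and the median was -0.32 (-0.16 after removing the length trend, for the 13 with a length). Thbs1, thrombospondin 1, had 8.64 FPKM in the Per2-labelled library and 54.7 FPKM in the control-labelled library (log2 ratio -2.53, or -2.09 with the length trend removed), lower than any of the 42 members. Fos had 2.97 and 6.98 FPKM (-1.01), and Mrtfa, the actin-sensing cofactor of SRF, had 2.59 and 6.11 FPKM (-0.99). Ctgf, a target of both MRTF and YAP, had 258 FPKM in the Per2-labelled library and 293 FPKM in the control-labelled library (-0.18).

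**Figure D5:**
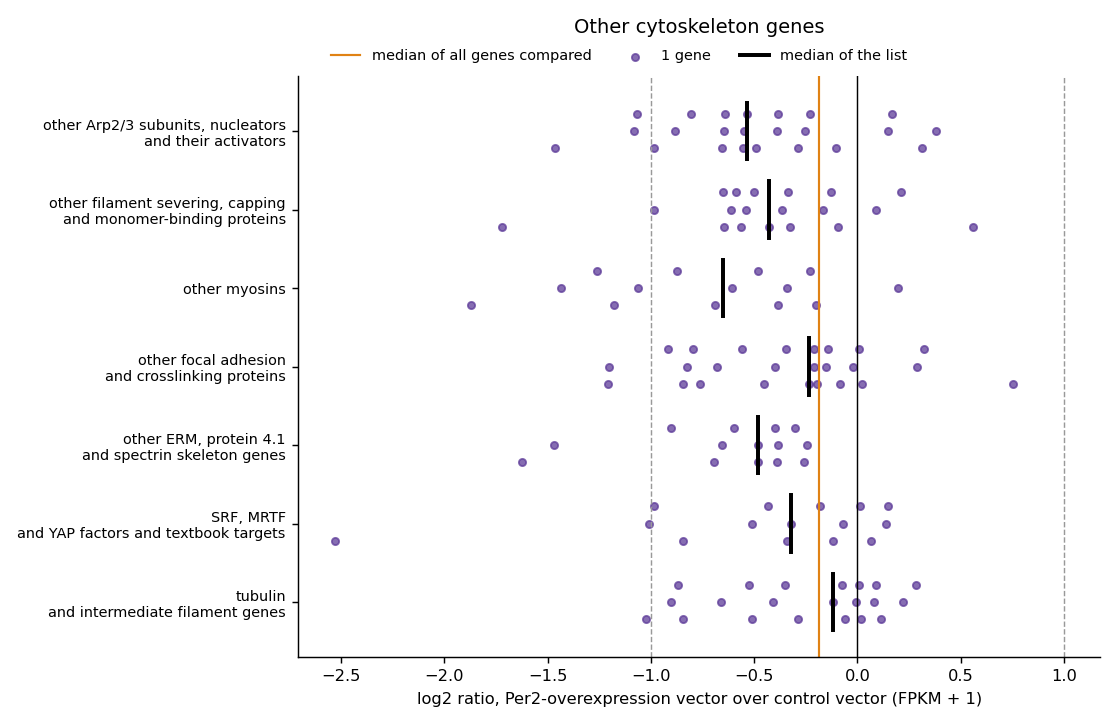
Log2 ratio, Per2-overexpression vector over control vector, of each measured gene in 7 lists of other cytoskeleton genes, with the list median (black bar), the median of all genes compared (orange line, -0.18) and dashed lines at 2-fold. Medians run from -0.65 for other myosins to -0.12 for tubulin and intermediate filament genes, and the highest single ratio is 0.76, below 2-fold.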

How the data were processed

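The authors deposited 1 table of FPKM values, 1 column per library. HISAT2, StringTie, DESeq2, edgeR and the rat build Rnor_6.0 are named in the submitters' processing notes; their versions, order and settings are not stated there. The labels give mouse as the organism while the identifiers are rat, which could not be settled. Columns were matched to samples by library name.

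Computed here, with Python 3.11.15, pandas 2.3.3, scipy 1.17.1 and statsmodels 0.14.6, were log2 ratios with a pseudocount of 1, which understate the difference of low genes, for genes whose mean reached 1 FPKM. Of rows sharing a symbol the higher mean was kept. The length trend was removed as the residual from a lowess fit (span 0.3) on log2 length of the longest protein-coding mouse transcript (GENCODE M21), available for 82.0% of genes compared and all 42 members; this also recentres the ratios. The code was checked on simulated data. Members and lists were chosen with earlier results of these data known. Named were all members, the 3 genes with the largest absolute log2 ratio of each wider list, and Per2; other genes, among them Srf, Ctgf, the further Arp2/3 subunits and the cell type markers, were chosen after their values were seen. A list of upstream regulators is not reported here. Alternatives were pseudocounts of 0.1 and 5, no filter, a filter at a mean of 5 FPKM, TPM rescaling, median-of-ratios centring, length removal and summed rows. The labels' protocol describes no strand marking, and antisense transcripts that overlap a gene cannot be separated from it. The authors' FPKM keep no depth here, so no interval is given.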

Additional observations from a re-analysis of the deposited data

How the results depend on the processing

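With 1 library per label the ratios describe these libraries only, and no library could be left out. No paired analysis was possible because each label has a single library. The count of members at least 2-fold lower was 4; it was 8 after TPM rescaling, which added Actb, Actg1, Cnn2 and Lcp1 and moved the median of all genes to -0.37, and 3 with a pseudocount of 5 or the length trend removed. The count at least 2-fold higher was 1, and 0 with the length trend removed. The median of the actin-turnover genes was -0.03, and 0.056 after median-of-ratios centring; the other medians kept their sign under all 8 alternatives. Over these 9 settings, 24 members were lower and 9 higher in the Per2-labelled library throughout, and 9 (Acta2, Flna, Actn4, Zyx, Pfn1, Tmsb4x, Arpc1b, Arpc3 and Capg) had a sign that depended on the setting. TPM rescaling lowered every member's ratio and turned Acta2, Zyx and Capg to lower. Centring raised every member's ratio and turned Actn4 and Arpc1b to higher. Length removal turned Flna, Actn4, Pfn1, Tmsb4x, Arpc1b and Arpc3. The cause of the differences between the libraries was not tested. Filters and summed rows left every member's value as it was, since no member was near 1 or 5 FPKM in the mean or shared its symbol. The median of all genes did move, to 0 without a filter, -0.12 at a mean of 5 FPKM and -0.11 with a pseudocount of 5. The members' median was -0.18 in each of these. A pseudocount added to both libraries always keeps the sign of a ratio. Signs of members could thus turn only under TPM rescaling, centring and length removal. Over all genes, the counts at least 2-fold lower and higher were 733 and 271, against 1400 and 189 after TPM rescaling, 590 and 360 after centring, 1304 and 413 with a pseudocount of 0.1, and 164 and 120 with a pseudocount of 5.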

Other observations

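Tubulin and intermediate filament genes, the other filament systems of the cell, had a median log2 ratio near that of all genes. Of 21 measured genes, 14 lay below 0 and 7 above, 1 was at least 2-fold lower while 0 were as much higher, and the median was -0.12, beside -0.18 for all genes compared. With the length trend removed, none of the 21 was past 2-fold. Tuba1b, an alpha-tubulin, had 669 FPKM in the Per2-labelled library and 698 FPKM in the control-labelled library. Tubb5, a beta-tubulin, had 460 and 458 FPKM in the same order. Vim, vimentin, had 1549 FPKM in the Per2-labelled library and 2230 FPKM in the control-labelled library (log2 ratio -0.53). Lmnb1, lamin B1, a nuclear lamina protein of dividing cells, was the gene past 2-fold, with 3.36 and 7.85 FPKM (-1.02, or -0.81 with the length trend removed). Tuba8 had 9.51 FPKM in the Per2-labelled library and 18.7 FPKM in the control-labelled library (-0.90), and Map1b, a microtubule-associated protein of neurons and glia, had 1.99 and 4.45 FPKM (-0.87). Tuba1b, Tubb5 and Vim were chosen after their values were seen.

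Marker lists of cell types are given beside 64.1% of all genes below 0. At least 2-fold lower were 5.93% of all genes, or 2.40% with the length trend removed. Astrocyte markers summed to 192 FPKM in the Per2-labelled library and 427 FPKM in the control-labelled library, with all 8 below 0 and 4 at least 2-fold lower, or 2 with the length trend removed. Oligodendrocyte lineage markers summed to 47.9 FPKM in the Per2-labelled library and 66.6 FPKM in the control-labelled library. Cnp held most of that, at 37.4 and 38.5 FPKM in the same order (log2 ratio -0.04). All 6 measured lay below 0 (median -1.01, or -0.78 with the trend removed). Of these, 3 were at least 2-fold lower, or 1 with the trend removed. Microglia and macrophage markers summed to 3714 FPKM in the Per2-labelled library and 3953 FPKM in the control-labelled library, with 2 of 11 at least 2-fold lower, or 1 with the trend removed. Of 7 endothelial markers found, 2 passed the filter, and Cldn5 was listed at 0 in both libraries. Their part in the ratios of the actin and myosin genes was not tested.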
